A study of Mus musculus with 1012 samples.

Results

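Acod1, Nos2, Arg1, Ass1, Slc7a2, Slc7a11, Sod2, Hif1a, Slc2a1 and Pfkfb3, 10 genes by which an activated macrophage makes itaconate and nitric oxide, handles arginine and cystine, detoxifies superoxide and takes up and breaks down glucose, were followed through 1012 single-cell transcriptomes of mouse cells. The genes were chosen by name, with earlier results of these data known, and all 10 have a row among the 30452 features of the count table. RAW-G9 cells are 1 clone of the macrophage-like line RAW264.7 that carries mCherry under a Tnf promoter and an EGFP-RelA fusion. They were sampled either mock-treated or after lipopolysaccharide (LPS), the outer membrane glycolipid of Gram-negative bacteria that macrophages sense through Tlr4. The study's methods give 4 to 5 h of LPS for cytoplasmic biopsies and state no time for lysed whole cells. Live-seq, which sequences cytoplasm drawn out of a living cell, gave 8, 20, 63 and 12 mock and 4, 16, 9 and 10 LPS libraries in batches 6, 7, 8_8 and 9_4, and conventional single-cell RNA-seq (scRNA-seq) of lysed whole cells gave 16, 46 and 95 mock and 15, 46 and 88 LPS libraries in batches 8_8, 9_1 and scRNA. The same techniques were applied to IBA cells, an immortalized brown preadipocyte line from young male C57BL6/J mice (44 biopsies in 3 batches, and 15, 45 and 93 whole cells), and to ASPCs, primary adipose stem and progenitor cells of female C57BL/6J mice 7 to 10 weeks old, either undifferentiated (ASPC_Pre, 61 biopsies and 60 whole cells in 2 batches each) or after 2 days of dexamethasone, IBMX, insulin and rosiglitazone (ASPC_Post, 37 and 35 in 1 batch each). Wild-type RAW264.7 cells gave 11 LPS and 1 mock Live-seq libraries (batch 5Reseq). IBA cells of batch 8_1 were lysed as controls without Live-seq sampling (shown as 0 h, 70) or 1 h (49) and 4 h (43) after it. The sources used here disagree on the LPS dose, so that none is given.

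Acod1 makes itaconate from the tricarboxylic acid (TCA) cycle intermediate cis-aconitate, and itaconate inhibits succinate dehydrogenase and modifies cysteines of other proteins. Nos2, the inducible nitric oxide synthase, and Arg1, an arginase, compete for arginine, which Slc7a2 carries into the cell and Ass1 helps to rebuild from citrulline. Slc7a11 imports cystine for glutathione synthesis, and Sod2 converts superoxide in mitochondria. Hif1a encodes the oxygen-regulated subunit of a transcription factor whose targets include the glucose transporter Slc2a1 and Pfkfb3, which makes the activator of phosphofructokinase. Expression of Acod1 and Nos2 is a textbook sign of macrophage activation, and Arg1 is best known from macrophages exposed to IL-4.

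RefSeq promoters (GRCm38.p6, 250 bases before to 50 after a start site) were at hand for 7 of the 10 genes, all but Nos2, Arg1 and Slc7a2. Those of the 4 genes on which the LPS results below turn are shown. Capitals mark matches, on either strand, to the NF-kB consensus, AP-1 (TGANTCA), a STAT-type element (TTCNNNGAA), the antioxidant core (TGACNNNGC), the hypoxia cores ACGTG and GCGTG, or TATAAA.
Acod1 promoter, chr14:103046762-103047061, + strand: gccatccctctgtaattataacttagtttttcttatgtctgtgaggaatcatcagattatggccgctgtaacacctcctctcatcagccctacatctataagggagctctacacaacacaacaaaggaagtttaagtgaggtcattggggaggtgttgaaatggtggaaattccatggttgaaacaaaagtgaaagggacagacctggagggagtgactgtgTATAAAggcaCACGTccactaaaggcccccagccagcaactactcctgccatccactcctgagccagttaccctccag
Slc7a11 promoter, chr3:50443564-50443863, - strand: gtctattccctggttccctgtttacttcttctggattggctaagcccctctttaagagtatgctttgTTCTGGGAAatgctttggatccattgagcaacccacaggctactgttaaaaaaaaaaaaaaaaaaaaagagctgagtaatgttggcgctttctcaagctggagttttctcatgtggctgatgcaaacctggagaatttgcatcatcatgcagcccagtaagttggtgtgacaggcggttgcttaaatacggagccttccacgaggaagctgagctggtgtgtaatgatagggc
Sod2 promoter, chr17:13007589-13007888, + strand: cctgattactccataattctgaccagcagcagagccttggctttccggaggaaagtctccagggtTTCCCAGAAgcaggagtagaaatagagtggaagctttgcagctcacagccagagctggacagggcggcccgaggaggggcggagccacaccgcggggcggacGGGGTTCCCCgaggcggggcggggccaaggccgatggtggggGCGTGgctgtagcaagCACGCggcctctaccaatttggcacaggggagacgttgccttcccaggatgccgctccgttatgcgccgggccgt
Slc2a1 promoter, chr4:119108495-119108794, + strand: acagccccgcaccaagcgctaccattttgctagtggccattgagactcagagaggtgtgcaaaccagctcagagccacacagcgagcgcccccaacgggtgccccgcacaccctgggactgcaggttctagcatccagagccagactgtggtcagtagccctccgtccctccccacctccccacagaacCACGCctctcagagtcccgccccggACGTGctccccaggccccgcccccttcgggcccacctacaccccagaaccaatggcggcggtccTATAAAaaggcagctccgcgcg
Of these sequences, that of Sod2 alone held a match to the NF-kB consensus, 83 bases before the start, which 8.46% of all 32851 RefSeq promoters of this length also held. Acod1 had TATAAA 28 bases before the start (13.62% of all promoters hold it somewhere) and CACGT, the reverse complement of ACGTG, 18 bases before it (19.62%). Slc2a1 had ACGTG 36 bases before the start, and Slc7a11 and Sod2 each had a STAT-type match (8.3% of all promoters). None of the 7 promoters held the AP-1 or antioxidant letters (7.81% and 12.39% of all promoters). Such matches describe letters in this window only.

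Each library is 1 cell, with 38451 to 2671609 counts. Biopsies of RAW-G9 cells detected fewer genes than whole cells, with medians of 3399 (mock) and 3590 (LPS) against 8201 and 7901 genes. The 8 macrophage markers summed to between 1918 and 10543 counts per 1000000 counts (CPM) in RAW-G9 cells of either technique and to at most 79.1 CPM in ASPCs, whereas the 8 mesenchymal markers summed to at most 5.63 CPM in RAW-G9 cells. Apart from the rest stood wild-type LPS biopsies, in which macrophage markers summed to 28515 CPM, and IBA whole cells of batch 9_1, in which they summed to 540.8 CPM, of which Lyz2 made up 446.5 CPM. Levels below are CPM of the counts of all cells of a group and batch added up, so that each batch is a replicate and n counts batches. Batch was in the model, so that p-values measure the spread left after state and batch. That spread was estimated over the sums of all states fitted, IBA cells and ASPCs included. The labels do not say that batches are separate cultures.

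Acod1 (ENSMUSG00000022126, chr14:103046977-103056573 on GRCm38, + strand) was higher after LPS in every batch of both techniques. In whole cells it lay at 115.7, 429.7 and 1500 CPM in mock cells of batches 8_8, 9_1 and scRNA and at 4377, 5691 and 5485 CPM after LPS. The LPS values were close to each other and the mock values spread over more than a 10-fold range, without overlap. The change was 3.78 ± 0.62 on the log2 scale (SE, n = 3 against 3, edgeR adjusted p = 0.0268), and the ratio within a batch ran from 3.66 in batch scRNA to 37.8 in batch 8_8. In biopsies, mock cells had 1310, 955.4, 817.6 and 266.3 CPM in batches 6, 7, 8_8 and 9_4 and LPS cells 2833, 9579, 5475 and 12524 CPM. These groups did not overlap either, with a fitted change of 3.14 ± 0.75 (log2, SE, n = 4 against 4), yet the adjusted p was 1. Acod1 was counted in 97.8% to 100% of whole cells and 38 of 39 biopsies after LPS. Mock cells differed more from one another. They had counts in 75.0% to 93.7% of whole cells and 38.1% to 66.7% of biopsies, by batch, and the 95 mock whole cells of batch scRNA had a median of 342.2 CPM and a maximum of 11830 CPM. A single cell gave 76.1% of the Acod1 counts of mock biopsies of batch 6. Outside RAW cells Acod1 was near 0, with at most 0.31 CPM in any batch of IBA cells or ASPCs.

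**Figure D1:**
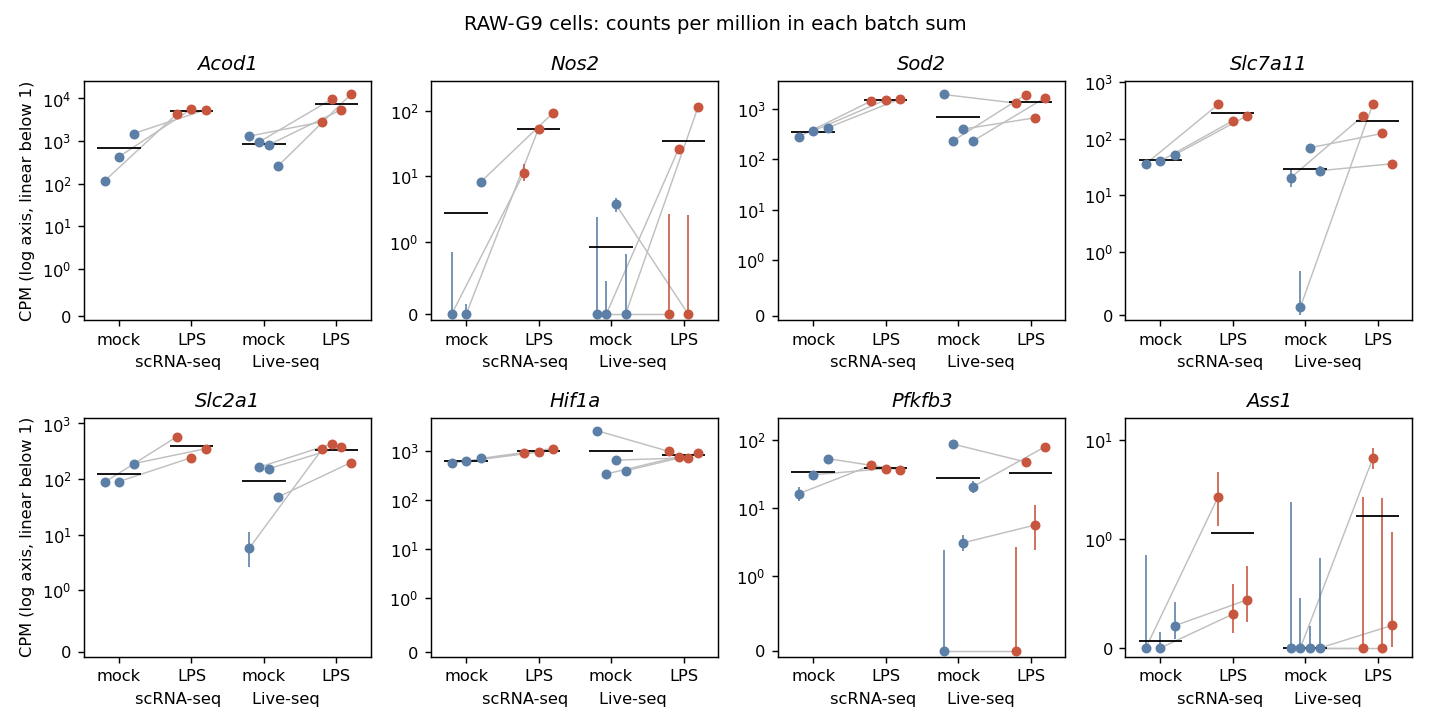
Levels of 8 of the genes in RAW-G9 cells, in CPM on a log axis that is linear below 1. Each point is the sum of 1 batch (blue mock, red LPS; batches from left to right in the order 8_8, 9_1, scRNA for scRNA-seq and 6, 7, 8_8, 9_4 for Live-seq), bars are 95% Poisson intervals that cover counting error only, grey lines join the same batch and black lines are means. Acod1 and Slc2a1 after LPS lie above every mock value of their technique in both techniques.

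Nos2 (ENSMUSG00000020826, chr11:78920787-78960254, + strand) appeared after LPS in some cells but not in others. Whole mock cells had no count in batches 8_8 and 9_1 and 8.13 CPM in batch scRNA, and after LPS the level was 11.4, 53.5 and 93.1 CPM. Every LPS value was thus above every mock value, although without 1 cell that gave 68.1% of the counts the LPS value of batch 8_8 was 4.08 CPM, below the mock value of batch scRNA. Against a floor of 3 counts per batch the level was at least 16.4-fold higher in batch 8_8 and at least 455.4-fold higher in batch 9_1, and it was 11.5-fold higher in batch scRNA, where 1 of 95 mock cells gave 54.1% of the mock counts (3.81 CPM without it). Nos2 was not called, with a fitted change of 6.18 ± 1.51 (log2, SE, n = 3 against 3) and an edgeR adjusted p of 0.107. With edgeR's newer fit it was called (5.09 ± 0.88, adjusted p = 0.0176), and with DESeq2 it was not (adjusted p = 0.387). The share of whole cells with a Nos2 count went from 0 of 16, 0 of 46 and 4 of 95 mock cells to 4 of 15, 34 of 46 and 61 of 88 LPS cells, that is from 0%, 0% and 4.21% to 26.7%, 73.9% and 69.3%. A sum over cells does not tell more cells with counts from more counts per cell. The median LPS cell of batch 9_1 had 32.6 CPM of Nos2 and its highest cell 300.9 CPM, and in batch scRNA these values were 39.4 and 993.1 CPM, whereas the median cell of batch 8_8 had no count.

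Biopsies showed the same unevenness. After LPS, Nos2 was counted in 0 of 4, 4 of 16, 0 of 9 and 4 of 10 cells of batches 6, 7, 8_8 and 9_4 (26.4 CPM in batch 7 and 113.5 CPM in batch 9_4), and 1 cell gave 45.3% of the counts of batch 9_4. The 0 counts over the 9 LPS biopsies of batch 8_8 allow up to 2.58 CPM by the 95% Poisson interval, which covers counting error only. Mock biopsies and LPS whole cells of that batch had 3.71 and 11.4 CPM. By cells, 0 of 9 allows up to 33.6% with a count (exact binomial 95% interval). This is above the 4.76% of mock biopsies and the 26.7% of LPS whole cells, so that the values do not order these groups. Among mock biopsies, 3 of the 63 of batch 8_8 and none elsewhere had Nos2 counts. These 3 biopsies had 3889, 4510 and 5566 CPM of Acod1, and in batch scRNA the 4 mock whole cells with Nos2 counts had 1441, 8950, 10249 and 11830 CPM. These are single cells named because Nos2 was counted in them, and no group was made of them. IBA cells and ASPCs had Nos2 counts in 1 cell among the whole IBA cells and in none of the 60 and 35 whole ASPCs.

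**Figure D2:**
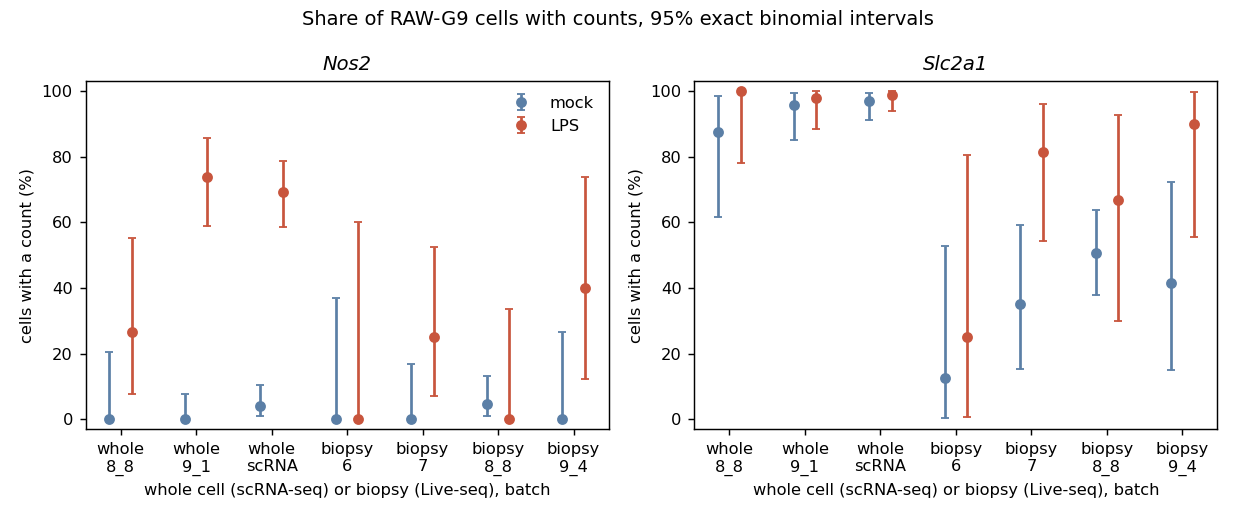
Percent of RAW-G9 cells with at least 1 count of Nos2 (left) and Slc2a1 (right) for mock (blue) and LPS (red) cells in each batch, whole cells and biopsies apart, with exact binomial 95% intervals. Nos2 was counted in at most 4.76% of mock cells of any batch. After LPS it was counted in 26.7% to 73.9% of whole cells and 0% to 40% of biopsies, by batch. Slc2a1 was counted in most whole cells of both groups.

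The other arginine genes were almost absent from RAW-G9 cells. Arg1 (ENSMUSG00000019987, chr10:24915221-24927484, - strand) did not pass the filter on low counts, with 30 counts over 5 mock and 40 counts over 8 LPS whole cells and at most 2.54 CPM in any batch of any group. Slc7a2 (ENSMUSG00000031596, chr8:40862396-40922308, + strand) had 1 count over all mock whole cells and none in LPS whole cells, which allows up to 2.01% of these cells to have a count. Ass1 (ENSMUSG00000076441, chr2:31470207-31520672, + strand) had 7 counts in mock and 33 counts in LPS whole cells. Its LPS values of 2.66, 0.31 and 0.44 CPM lay above the mock values of 0, 0 and 0.20 CPM, a change that was not called (2.81 ± 1.39, log2, SE, n = 3 against 3, edgeR adjusted p = 0.414). Of 66 Ass1 counts in LPS biopsies, 65 fell in batch 7, where 1 cell held 98.5% of them. After LPS, Nos2 was thus counted in many whole cells, Slc7a2 in none and Ass1 in 6.

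Sod2 (ENSMUSG00000006818, chr17:13006846-13040063, + strand) rose in whole cells with the smallest SE of the 9 genes tested. Mock cells had 282.1, 368.5 and 427.001 CPM in batches 8_8, 9_1 and scRNA and LPS cells 1454, 1530 and 1600 CPM, a change of 2.26 ± 0.21 (log2, SE, n = 3 against 3, edgeR adjusted p = 0.00524). It was counted in every whole RAW-G9 cell of both groups. In biopsies of batches 7, 8_8 and 9_4 the sums were 236.1, 401.1 and 230 CPM in mock and 1944, 674.6 and 1690 CPM in LPS cells. In batch 8_8 the median cell ran against the sum, with 220.9 CPM in mock and 9.72 CPM in LPS cells, and 76.2% of mock but 55.6% of LPS biopsies had a count. Batch 6 ran the other way, from 1960 to 1319 CPM, with 47.01% of its 3065 mock counts in 1 of 8 cells. The fitted change in Live-seq was 1.70 ± 0.71 (log2, SE, n = 4 against 4, adjusted p = 1).

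Slc7a11 (ENSMUSG00000027737, chr3:49892526-50443614, - strand), the cystine transporter, rose from 36.04, 40.2 and 52.1 CPM to 404.2, 207.8 and 255.8 CPM in whole cells, in the same order of batches. The groups lay well apart, with a change of 2.89 ± 0.41 (log2, SE, n = 3 against 3, edgeR adjusted p = 0.0164). Biopsies had 20.5, 0.12, 69.4 and 27.3 CPM in mock and 255.3, 411.5, 124.4 and 36.2 CPM in LPS cells of batches 6, 7, 8_8 and 9_4, higher after LPS in each batch but overlapping between batches (2.85 ± 1.55, log2, SE, adjusted p = 1). The count ignored strand, and Slc7a11 overlaps gene models of unknown function on both strands. Slc2a1, Hif1a, Pfkfb3 and Slc7a2 overlap other gene models too. How reads in the shared stretches affect these counts was not tested.

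Slc2a1 (ENSMUSG00000028645, chr4:119108711-119137983, + strand), a glucose transporter, was higher after LPS in all 7 batches. Whole cells had 87.6, 90.1 and 189.04 CPM in mock and 580, 242.7 and 352.5 CPM in LPS batches, without overlap, but the change of 1.83 ± 0.39 missed the threshold (log2, SE, n = 3 against 3, edgeR adjusted p = 0.0629). In biopsies, mock values of 5.76, 163.3, 153.3 and 47.7 CPM stood against 340.3, 428.03, 383.1 and 197.96 CPM after LPS. Here too no sum overlapped, with a change of 2.43 ± 0.87 (log2, SE, n = 4 against 4, adjusted p = 1). Slc2a1 counts were present in 12.5% to 50.8% of mock and 25% to 90% of LPS biopsies, by batch, and in batch 6 all counts of either group came from 1 cell. In batch 9_4, 1 cell gave 62.6% of the LPS counts, and without it the LPS level was 83.6 CPM, below mock batches 7 and 8_8. Without its 1 cell with counts, the LPS level of batch 6 was 0 CPM. The absence of overlap thus rests on each of these LPS cells.

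Hif1a (ENSMUSG00000021109, chr12:73901375-73947530, + strand) moved little and evenly in whole cells. Mock batches had 572.9, 626.7 and 717.3 CPM and LPS batches 921.7, 970 and 1142 CPM, so that the ratio within a batch lay between 1.55 and 1.61. This change of 0.81 ± 0.23 was below both limits (log2, SE, n = 3 against 3, edgeR adjusted p = 0.139). In Live-seq the change was 0.34 ± 0.55 (log2, SE, n = 4 against 4, adjusted p = 1), where mock biopsies of batch 6 had 2659 CPM, 74.2% of it from 1 cell, against 344.8, 662.1 and 399.9 CPM in mock batches 7, 8_8 and 9_4 and 998.3, 773.8, 741.7 and 907.6 CPM after LPS. The LPS value of batch 6 also came mostly from 1 cell, of 4, with 79.2% of its counts, and without these cells batch 6 had 778.8 CPM in mock and 315.9 CPM in LPS biopsies.

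Pfkfb3 (ENSMUSG00000026773, chr2:11471433-11554077, - strand) gave no direction. Mock whole cells had 16.2, 30.8 and 53.4 CPM and LPS cells 42.4, 38.1 and 36.5 CPM, with LPS higher in 2 of 3 batches (0.50 ± 0.49, log2, SE, n = 3 against 3, edgeR adjusted p = 0.725). In biopsies it stood at 0, 87.3, 3.04 and 20.4 CPM in mock and 0, 47.6, 5.59 and 79.9 CPM in LPS cells, from 15 and 8 cells in all (0.47 ± 2.43, log2, SE, n = 4 against 4, adjusted p = 1). Levels per kilobase of exon, merged over all annotated transcripts, allow a rough comparison between genes. In LPS whole cells their means ran from Acod1 (1976 CPM per kb) through Hif1a (171.5), Sod2 (152.7), Slc2a1 (111.7), Slc7a11 (20.8) and Nos2 (11.9) to Pfkfb3 (5.15). Ass1 (0.47), Arg1 (0.20) and Slc7a2 (0) lay below these. Which transcripts the cells held was not tested.

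**Figure D3:**
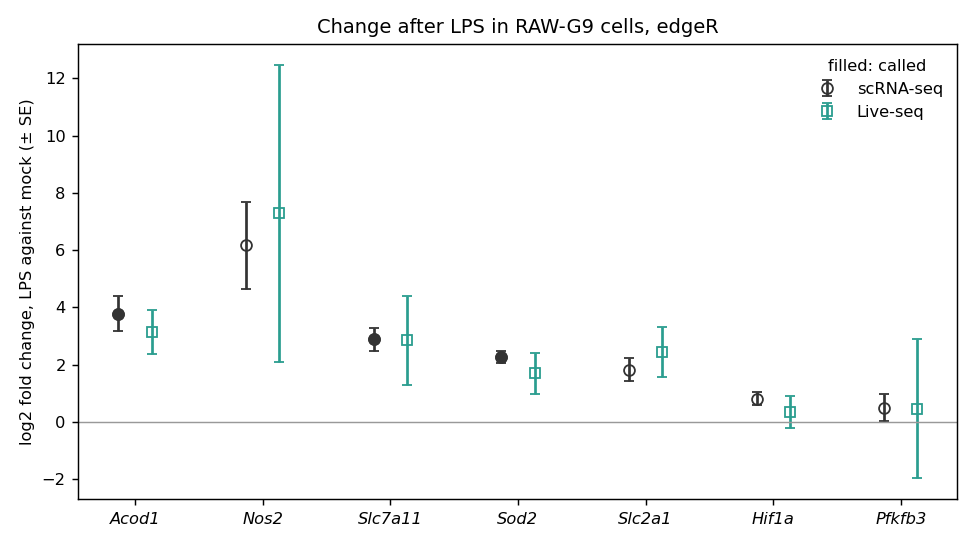
Change after LPS in RAW-G9 cells for 7 genes, as edgeR's log2 fold change with its SE, for scRNA-seq (circles) and Live-seq (squares). Filled symbols passed the threshold, which in scRNA-seq were Acod1 (3.78), Slc7a11 (2.89) and Sod2 (2.26), and the error bars of Live-seq are the wider ones for each gene.

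Counted together, 9 of the 10 genes passed the filter in whole cells, and 3 of these 9 (Acod1, Slc7a11 and Sod2) were called higher after LPS at an adjusted p under 0.05 and a change of more than 1 on the log2 scale, against 0.951% of 13560 genes tested. None was called lower (0.324% of all genes). At an unadjusted p under 0.05 stood 6 of the 9, against 14.5% of all genes. All LPS sums lay above all mock sums for 7 of the 9 genes, against 6.05% of all genes tested. Among them, Ass1 had 11, 9 and 13 LPS counts, from 2 cells in each batch. Without the cell with most counts, Ass1 in LPS cells of batch 9_1 (0.04 CPM) and Nos2 in those of batch 8_8 (4.08 CPM) lay below mock batch scRNA. Nos2 can have passed the filter only through LPS-treated RAW-G9 cells, since under 15% of whole cells of each other state had a count. It is among both the 7 and the 6 genes, so that these shares partly reflect the filter. Ass1 and Slc7a2 can have passed only through IBA cells or ASPCs, as under 15% of whole RAW-G9 cells of either treatment had counts. The genes were chosen with earlier results of these data known, so that these shares describe them and test nothing. The 3 calls need all batches. Without batch 8_8 none of the 9 was called, as none of all genes was, while Acod1 had 3.01, Slc7a11 2.51 and Sod2 2.15 on the log2 scale. Without batch scRNA none of the 9 and 4 of all genes were called, with 4.57, 3.05 and 2.33, and without batch 9_1 only Sod2 was called, at 2.26, among 18 of all genes.

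In Live-seq, edgeR called 0 of 9 genes, as it called none of 13448 genes in either direction (0% higher and 0% lower), also with its newer fit (0% higher). Slc7a2, 1 of the 9, had no count in any RAW-G9 biopsy, so that it could not have been called. At an unadjusted p under 0.05 there were 4 of the 9 (Acod1, Ass1, Sod2 and Slc2a1), against 3.98% of all genes. Of the 65 Ass1 counts in LPS biopsies of batch 7, 98.5% came from 1 cell. DESeq2 called Acod1 and Slc2a1, against 1.05% of all genes called higher, and only 21.2% of its calls over all genes were higher. In the simulation of this comparison on 13448 genes, DESeq2 made 310 false calls and edgeR 0. The LPS and mock sums did not overlap for the same 2 genes, against 0.937% of all genes tested, for Slc2a1 through the single LPS cells of batches 6 and 9_4 named above. Over all genes, the median change in Live-seq was -0.48 on the log2 scale. With 4 batches whose sums hold 4 to 63 cells, a simulation of this comparison recovered 2% of 16-fold changes among 13448 genes, so that the absence of calls says little about these genes.

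No difference between techniques in the change after LPS was called for any of the 9 genes in edgeR's test of the difference (0 of 13560 genes, 0% higher and 0% lower, and 4.93% of genes at an unadjusted p under 0.05, none of them of the 9), nor did DESeq2 call any of the 9. Slc7a2 could not have been called, with 1 count over mock whole cells and none in LPS whole cells or RAW-G9 biopsies. Live-seq minus scRNA-seq, the change in Acod1 differed by -0.54 ± 1.10, in Sod2 by -0.48 ± 0.80, in Hif1a by -0.41 ± 0.64 and in Slc2a1 by 0.66 ± 0.98 (log2, SE). Such errors leave room for differences of several fold.

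Genes around these 10 were followed in 5 lists, in whole cells. Of 23 further genes of glycolysis and glucose uptake, all tested, Slc2a6, another hexose transporter, was called higher (2.16 ± 0.30, log2, SE, edgeR adjusted p = 0.0150), and the other 22 were not called. Their median change was 0.18, against 0.0023 for all genes tested. Slc16a3, a lactate exporter, had 1.26 ± 0.31 (adjusted p = 0.0936), and among the enzymes of glycolysis Hk2 had 0.80 ± 0.36 (adjusted p = 0.364), Pfkl 0.71 ± 0.28 (0.289), Pgk1 0.48 ± 0.23 (0.401), Ldha 0.23 ± 0.22 (0.724) and Gapdh 0.10 ± 0.22 (0.943). Of the 23 genes, 17 had a positive fitted value. Among the negative ones were the enzymes Hk1 (-0.55 ± 0.33, log2, SE), Gpi1 (-0.09 ± 0.23), Pfkm (-0.07 ± 0.55) and Pkm (-0.04 ± 0.24). None of the 16 genes of the TCA cycle and citrate use was called, and 12 of 16 had a negative fitted value, with a median of -0.17. Among them Sdha, a subunit of succinate dehydrogenase, had -0.23 ± 0.19 (edgeR adjusted p = 0.673).

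Of 16 genes of cystine, glutathione and peroxide handling, Prdx5, a peroxiredoxin, was called higher (1.05 ± 0.19, log2, SE, edgeR adjusted p = 0.0365), and 15 were not, with a median of 0.02. Slc3a2, the partner chain of Slc7a11, had 0.80 ± 0.33 (adjusted p = 0.304). In the list on arginine and nitric oxide, 11 of 14 genes were tested and none was called (median -0.07). Gch1, which begins the synthesis of the cofactor that Nos2 needs, came closest (2.58 ± 0.57, adjusted p = 0.0697). None of 10 genes of HIF regulation was called (median 0.55), with 1.18 ± 0.29 for Vhl (adjusted p = 0.0958), which marks Hif1a protein for degradation. Of the 8 LPS response markers, 1 (Nfkbia) was called, although all 8 had positive values with a median of 4.2. In Live-seq, no gene of any of the 5 lists was called.

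Genes whose levels ran most like Acod1 over the 12 sums of whole cells, by the correlation of log2(CPM + 1) among 7612 genes, were Tnf (Pearson's r = 0.995), Bcl2a1d (0.995), Clec4e (0.994), Fcgr2b (0.993) and Myo1g (0.993). For Nos2 they were Il27 (0.982), Cxcl2 (0.972), Birc3 (0.971), Csf3 (0.969) and Nod2 (0.967), and for Slc2a1 Plagl2 (0.940), Bcl2a1a (0.939), Lcn2 (0.933), Zc3h7a (0.918) and Prr14l (0.914). The sums share cell types and libraries, so that these values describe a pattern over 5 states and no more.

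**Figure D4:**
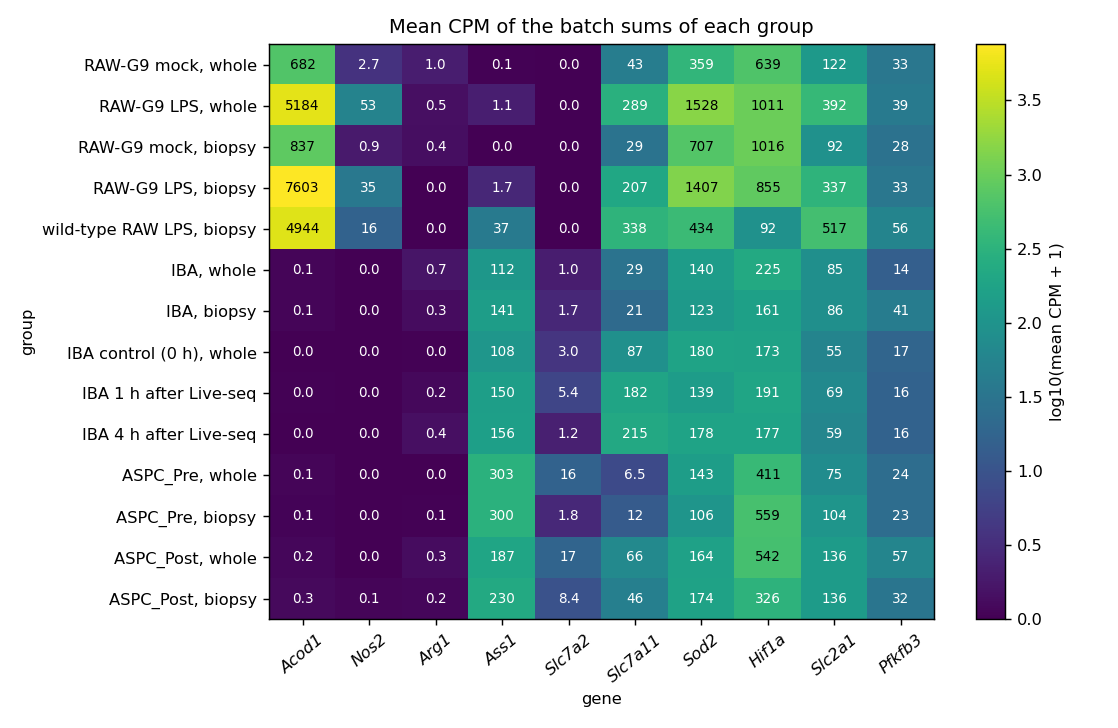
Mean CPM over the batches of each group, written in each cell, with colour on a log10(CPM + 1) scale. Acod1 is at 681.7 CPM or more in every RAW group shown and under 1 CPM in IBA cells and ASPCs, whereas Ass1 runs the other way.

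Across cell types, Acod1 and Ass1 divided RAW cells from IBA cells and ASPCs in opposite directions. In mock RAW-G9 against IBA whole cells, 3 of 9 genes were called higher (12.9% of 13560 genes) and 2 of 9 lower (20.7%), shares that come close to those of all genes for the lower calls. Higher in RAW-G9 were Acod1 (62961 counts against 11, adjusted p = 2.32e-05), Hif1a (1.55 ± 0.23, log2, SE, edgeR adjusted p = 0.000933) and Sod2 (1.34 ± 0.21, adjusted p = 0.00106). Lower were Ass1 (7 counts against 7530, adjusted p = 0.000312) and Slc7a2 (1 count against 100, adjusted p = 0.0179). In Live-seq, 1 of 9 was called higher (0.803% of 13448 genes), again Acod1 (25680 counts against 4, adjusted p = 0.000407), and 1 of 9 lower (1.41%), again Ass1 (no count in any mock biopsy, at least 1649-fold below IBA against a floor of 3 counts over the group, adjusted p = 0.0133). Hif1a (1.71 ± 0.63, log2, SE, adjusted p = 0.228) and Sod2 (1.48 ± 0.75, adjusted p = 0.436) were not called there.

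Over the 5 states of whole cells, LPS-treated RAW-G9 cells held the highest levels of Sod2, Hif1a, Slc7a11 and Slc2a1, with the order below them differing by gene. Sod2 was next in mock RAW-G9 cells, and its values in ASPC_Post (164.1 CPM, 1 batch) and ASPC_Pre (141.4 to 145.4) both lay within the range of IBA cells (120.2 to 177.3). Hif1a followed the order mock RAW-G9, ASPC_Post (542.02 CPM, 1 batch), ASPC_Pre (303.5 to 518.3) and IBA (145.1 to 268.7), without overlap. For Slc7a11 the order was ASPC_Post (66.4 CPM, 1 batch), mock RAW-G9, IBA (17.5 to 44.5) and ASPC_Pre (3.54 to 9.48), of which mock RAW-G9 and IBA cells overlapped. The IBA control cells of batch 8_1, which are outside these 5 states, had 87.3 CPM, above both ASPC_Post and mock RAW-G9, so that the place of IBA cells in this order depends on the batch. Slc2a1 did not separate the 4 states other than LPS, since mock RAW-G9 (87.6 to 189.04 CPM), ASPC_Post (135.8), IBA (67.4 to 107.1) and ASPC_Pre (66.1 to 84.8) formed a chain of overlapping ranges from first to last, save for ASPC_Post, which lay above the IBA and ASPC_Pre values.

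Ass1 varied between batches of ASPC_Pre. It had 84.1 CPM in batch 8_8 and 521.1 CPM in batch 9_1 of whole cells, and 60.9 CPM in batch 8_8 and 538.2 CPM in batch 9_4 of biopsies, higher in the batch other than 8_8 with either technique. After 2 days of the adipogenic mix it lay lower, at 187.2 CPM in whole cells (batch 9_1) and 230 CPM in biopsies (batch 9_4), ratios of 2.78 and 2.34 to ASPC_Pre of the same batch. Slc7a11 ran the other way, from 3.54 to 66.4 CPM in whole cells and from 2.33 to 45.98 CPM in biopsies, 18.8-fold and 19.8-fold, although 1 cell gave 31.3% and 55.8% of the ASPC_Post counts. Slc2a1 went from 84.8 to 135.8 CPM in whole cells and from 64.9 to 135.95 CPM in biopsies. Hif1a and Pfkfb3 showed no common direction, with ratios of 1.05 and 1.52 in whole cells and 0.705 and 0.685 in biopsies. Each of these pairs is 1 batch, so that no test was made.

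IBA cells lysed after Live-seq held more Slc7a11 than controls of the same batch. The level was 87.3 CPM in controls (95% Poisson interval 83.7 to 91.1, counting error only), 182.2 CPM at 1 h (176.6 to 187.96) and 215.2 CPM at 4 h (208.05 to 222.5), and the median cell went from 23.1 to 107.8 and 126.97 CPM. A single cell gave 29.6% of the 4 h counts, against 11.8% at 1 h and 12.6% in controls. The part of that cell in the step from 1 h to 4 h was not tested. Ass1 went from 107.9 to 150.2 and 155.8 CPM. Sod2 (179.8, 138.7 and 177.6 CPM) and Hif1a (172.7, 190.8 and 176.9 CPM) had values at 4 h close to those of controls, and Slc2a1 stood at 1.25 and 1.08 times its control level at 1 h and 4 h. Acod1 had 1 count and Nos2 none over all these cells. There was 1 batch and no replicate of a time, so that the difference between times and that between sets of cells cannot be told apart.

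**Figure D5:**
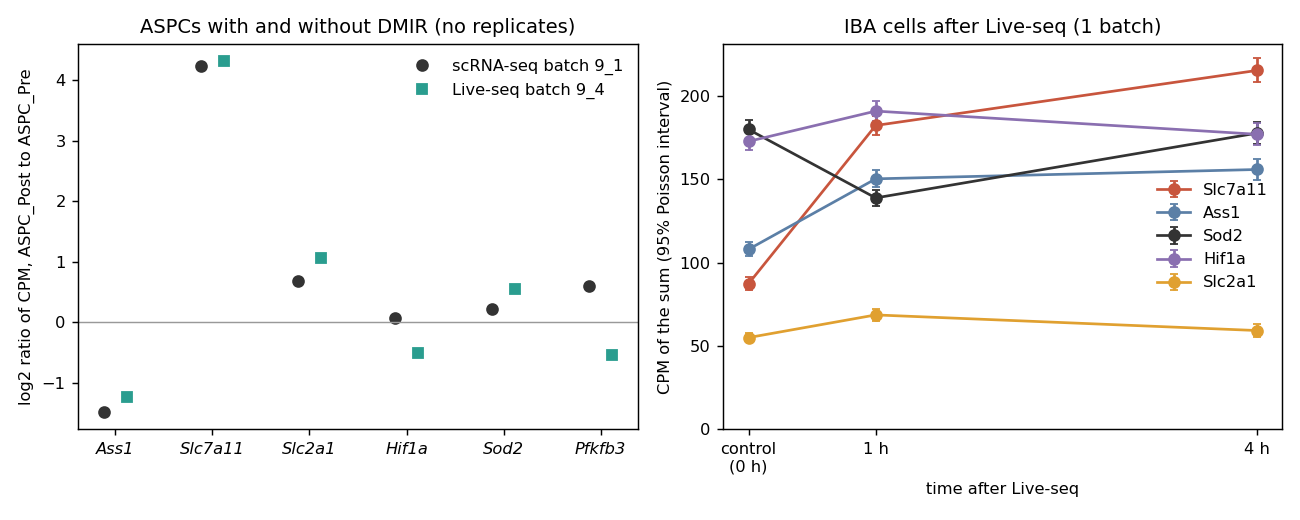
Left, log2 ratio of CPM in ASPC_Post to ASPC_Pre of the same batch for 6 genes, in scRNA-seq batch 9_1 (circles) and Live-seq batch 9_4 (squares), without replicates. Right, CPM of 5 genes in control IBA cells not sampled by Live-seq (drawn at 0 h) and in IBA cells 1 h and 4 h after Live-seq, with 95% Poisson intervals. Slc7a11 is higher in ASPC_Post with both techniques (18.8-fold and 19.8-fold) and higher at 4 h (215.2 CPM) than in controls (87.3 CPM). At 4 h, 1 of 43 cells gave 29.6% of its counts.

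Wild-type RAW264.7 biopsies after LPS, 1 batch of 11 cells, held Acod1 at 4944 CPM, within the 2833 to 12524 CPM of RAW-G9 biopsies. Slc2a1 (517.3 CPM) was above the RAW-G9 range of 197.96 to 428.03 CPM, and Ass1 (37.4 CPM, in 3 of 11 cells) above its range of 0 to 6.54 CPM. Sod2 (433.9 CPM against 674.6 to 1944) and Hif1a (92.1 CPM against 741.7 to 998.3) were below theirs. Macrophage markers, at 28515 CPM, were also above the RAW-G9 range, and their part in these values was not tested. Line and batch cannot be told apart here.

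Of 4 RAW-G9 cells sampled by Live-seq both before and after LPS, all 4 held more Acod1 after, with 0, 2.68, 27.9 and 4540 CPM before and 10648, 10333, 12019 and 12762 CPM after, in this order of cells. The cell with 4540 CPM before LPS thus started far above the other three and ended beside them. Sod2 was higher after in 4 of 4 and Slc7a11 in 3 of 4 (no count in the other), and Nos2 was counted in 1 of 4, only after LPS. Hif1a and Slc2a1 were each higher in 3 of 4 and lower in 1, at 1093 and 585.3 CPM of Hif1a and 650.1 and 521.3 CPM of Slc2a1 before and after. Pfkfb3 was counted in 2 of the 4, in one of them at 1558 CPM before and at 0 after LPS and in the other at 0 before and 149.7 CPM after. For 1 pair, the labels give both samples the same position in the order, and its groups were taken from the treatment label. All these libraries are also part of the sums of batches 7 and 9_4 above. In the cells of batch 7, libraries before LPS held 275351 and 122634 counts over retained genes, against 707884 and 729808 after. An absent count before LPS therefore says less in these cells.

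In batch 8_8, the one batch with biopsies and whole cells of both treatments, LPS cells had 5475 CPM of Acod1 in biopsies and 4377 CPM in whole cells, 674.6 and 1454 CPM of Sod2, 124.4 and 404.2 CPM of Slc7a11 and 383.1 and 580 CPM of Slc2a1. In mock cells Acod1 was 817.6 CPM in biopsies and 115.7 CPM in whole cells, with 41.6% of the biopsies' counts from 1 of 63 cells. The median mock cell ran the other way, with 0 CPM in biopsies and 47.04 CPM in whole cells, and counts in 38.1% and 75% of them.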

How the data were processed

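Per the study's methods and the submitters' processing notes, the authors mapped the first read to GRCm38 (STAR 2.6.1c), used HTSeq with its strand option off on Ensembl gene models, and deposited raw counts of all 1012 cells in 1 table, without molecular identifiers (Smart-seq2 chemistry), so that intervals cover counting error only. Groups and batches come from the labels. Genes of the 2 kinds that the study also removed, 20 found in negative controls and 91 for ribosomal proteins, were dropped before fitting (a median of 24.2% of a cell's counts). Counts were summed per group and batch with at least 3 cells. CPM is over retained genes. Genes with at least 2 counts in 15% of the cells of 1 scRNA-seq state that passed filterByExpr were tested with edgeR 4.0.16 (quasi-likelihood test with the fit of the older version, TMM, state and batch in the model) in R 4.3.3, with Benjamini-Hochberg adjustment over all genes. SE is the change divided by the square root of F. The alternatives, among them DESeq2 1.42.0, are in the closing section. Batch labels pair mock and LPS sums: deviations of the same batch correlated at 0.25, 0.33 and 0.42 in scRNA-seq and at 0.24, 0.06, -0.01 and 0.12 in Live-seq. The wild-type batch stayed out of the fits. Genes named are the 10 members, the called genes with the largest changes in each list, and the 5 nearest in pattern to Acod1, Nos2 and Slc2a1. Other genes named from the lists were picked after their values were seen. The members and lists were chosen with earlier results of these data known. The tests were tested on simulated data. Positions are from GENCODE vM21 and promoters from RefSeq. In scRNA-seq, the simulation recovered 54% of 8-fold changes among 13560 genes.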

Additional observations from a re-analysis of the deposited data

Results flagged for a closer look

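Over the 16 sets of 4 Live-seq sums examined, 5 held 1 batch that stood far from the other 3 (chance gives about 1 in 20 for values that vary, which does not apply to Nos2, Arg1 and Ass1, where the other batches held 0 or 1 count). Mock biopsies of batch 6 had 1960 CPM of Sod2 and 2659 CPM of Hif1a, with 47.01% and 74.2% of these counts from 1 cell. Mock biopsies of batch 8_8 had 3.71 CPM of Nos2 and 1.49 CPM of Arg1, and LPS biopsies of batch 7 had 6.54 CPM of Ass1, 98.5% of it from 1 cell, with 0 to 0.21 CPM in the other batches.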

How the results depend on the processing

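Of 56 recomputed counts of called genes, 47 stayed within 1.5 times the reported one. Of these 47, 14 for the difference between techniques and 10 for LPS in Live-seq were 0 against a reported 0. For LPS in scRNA-seq, 5 stayed, 2 were larger and 3 smaller. The 3 calls after LPS in scRNA-seq became 5 with edgeR's newer fit and 5 with no filter on low counts (Nos2 and Slc2a1 added in both), 4 with DESeq2, 2 without the replicate block, when Acod1 was lost, and 0 to 1 with a batch left out. In Live-seq, 0 calls after LPS became 2 with DESeq2. The 2 calls of mock RAW-G9 against IBA in Live-seq became 1 with the compared groups alone, and 0 to 2 with a batch left out (0 without batch 8_8, 1 without batch 9_4). Over all genes, the share called after LPS in scRNA-seq went from 1.28% to 3.43% with the newer fit, 5.27% with DESeq2, 4.36% with the compared groups alone, 0.258% without the block and 0 to 0.135% with a batch left out. DESeq2 called 4.94% after LPS in Live-seq and 2.85% in the test between techniques, where edgeR called 0% in each. Mock RAW-G9 against IBA in Live-seq went from 2.21% to 5.43% with the newer fit, 11.9% with DESeq2, 4.82% without the block and 0.0899% to 2.85% with a batch left out. Calls that were higher made up 74.6% in scRNA-seq after LPS and 58.4% with DESeq2. The causes were not tested.

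Changes of sign were seen only for values that passed no threshold. In Live-seq, Hif1a after LPS was -0.32 without the replicate block and ranged from -0.10 to 0.98 with a batch left out (-0.05 without batch 9_4), and Pfkfb3 from -0.28 to 1.46. With a batch left out, the difference between techniques ranged from -1.41 to 0.16 for Acod1 (0.18 without the replicate block), from -1.27 to 0.25 for Sod2, from -0.93 to 0.16 for Hif1a and from -0.12 to 1.19 for Slc2a1. Of the recomputed values of single genes, 88.9% kept their direction and side of the threshold. Chosen after the data were seen, leaving out the cell with most counts of a gene lowered some LPS sums. Slc2a1 in LPS biopsies went from 340.3 to 0 CPM in batch 6 and from 197.96 to 83.6 CPM in batch 9_4. Nos2 in LPS whole cells of batch 8_8 went from 11.4 to 4.08 CPM. Each of these LPS sums then no longer lay above all mock sums.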
